A study of Rattus norvegicus with 9 samples.

Results

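Liver RNA from 9 male Wistar rats was examined for Zbtb16 and 8 further genes that respond to glucocorticoids or set the response to them: Fkbp5, Tsc22d3, Sgk1, Nr3c1, Hsd11b1, Klf9, Mt1a and Errfi1. Their probes were found by RefSeq accession on one-color Agilent rat arrays, 1 array per rat, which gave 16 of the 41012 probes. These probes stand for 9 of the 13438 named genes on the array, and all 16 were among the 25369 probes bright enough to be tested. The 3 groups of 3 rats were untreated rats (Control), rats exposed to total-body irradiation of 6.5 Gy at 2 Gy/min from a 60Co source (TBI), and rats given Hong Shan Capsule, a crude drug of medicinal herbs, by stomach tube once daily on 3 consecutive days before the same exposure (HSC + TBI). Liver was collected 24 h after exposure. The sources disagree on the dose of HSC, which the design text gives as 10 g/kg/day and the sample protocols as 30 mg/kg/day. The age of the rats was not given in the sources used here, and arrays of unirradiated rats given HSC were not analysed here, so HSC was compared only on top of TBI.

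Glucocorticoids, chiefly corticosterone in the rat, are released by the adrenal cortex under stress and in a daily rhythm. They bind the glucocorticoid receptor, which then enters the nucleus and binds DNA. In the liver this raises genes of gluconeogenesis and amino acid breakdown and dampens inflammatory genes, while the response also induces its own inhibitors. Zbtb16, also called PLZF, encodes a zinc finger transcription factor that glucocorticoids induce in many cell types.

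Values are log2 signals of the spots after quantile normalization, so a difference of 1 is a doubling of signal. A gene was called higher or lower when limma's Benjamini-Hochberg adjusted p over all tested probes was under 0.05 and the fold change was at least 1.5. Zbtb16 was selected on its differences between these same groups, in log2 signal of TBI against Control and of HSC + TBI against TBI, so its values are given as a description without a test. The level of a gene with several probes is that of its brightest probe. The arrays measured whole liver, in which fewer cells of a type and less RNA per cell cannot be told apart. The share of probes above background was 56.6% to 59.3% on Control, 63.6% to 69.5% on TBI and 58.7% to 60.5% on HSC + TBI arrays. Control arrays shared 1 slide and TBI arrays another, and the HSC + TBI arrays lay on 2 more, so slide and group cannot be told apart. All 8 hepatocyte markers were above background in every rat and none was called in any comparison, with a log2 summed signal between 20.40 and 20.55. Quantile normalization gives every array the same set of values, and several of these markers lie among the brightest probes. Tf, for example, read 18.164 in all 3 HSC + TBI rats. The sum could therefore vary little, and it does not measure hepatocyte content. The number of arrays limits the precision: an exact two-sided permutation test of 3 against 3 rats cannot go below p = 0.1.

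Zbtb16 was lowest in the TBI rats and highest in the HSC + TBI rats. Its brighter probe read 6.69, 7.32 and 7.06 in the Control rats, 4.86, 5.22 and 3.80 in the TBI rats, and 8.24, 7.64 and 7.52 in the HSC + TBI rats. No rat of one group reached the range of another, although the gap between the highest Control rat and the lowest HSC + TBI rat was narrow. The group means were 7.02 ± 0.31, 4.62 ± 0.74 and 7.80 ± 0.39 (SD, n = 3). TBI differed from Control by -2.40 on the log2 scale, a 5.27-fold lower signal, and HSC + TBI lay 3.18 above TBI, a 9.04-fold higher signal. HSC + TBI exceeded Control by 0.78, or 1.72-fold.

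The dimmer Zbtb16 probe gave the same order with smaller steps. It read 5.12, 5.42 and 5.39 in Control, 4.40, 3.80 and 3.19 in TBI, and 6.09, 5.42 and 5.98 in HSC + TBI rats. The TBI rats were again below all others, but HSC + TBI 2 lay within the Control range, so Control and HSC + TBI did not separate on this probe. It differed from Control by -1.52 in TBI and by 0.52 in HSC + TBI rats, and between the irradiated groups by 2.03. Neither probe was dim on any of the 9 arrays, and the lowest signal marked above background was 2.51 to 3.13 on the TBI arrays. With normexp correction of the raw spots the brighter probe differed by -0.92 between TBI and Control and by 1.36 between HSC + TBI and TBI, in the same directions but smaller. Leaving out each rat in turn moved these 2 differences of the brighter probe over -2.69 to -1.98 and over 2.76 to 3.47.

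**Figure D1:**
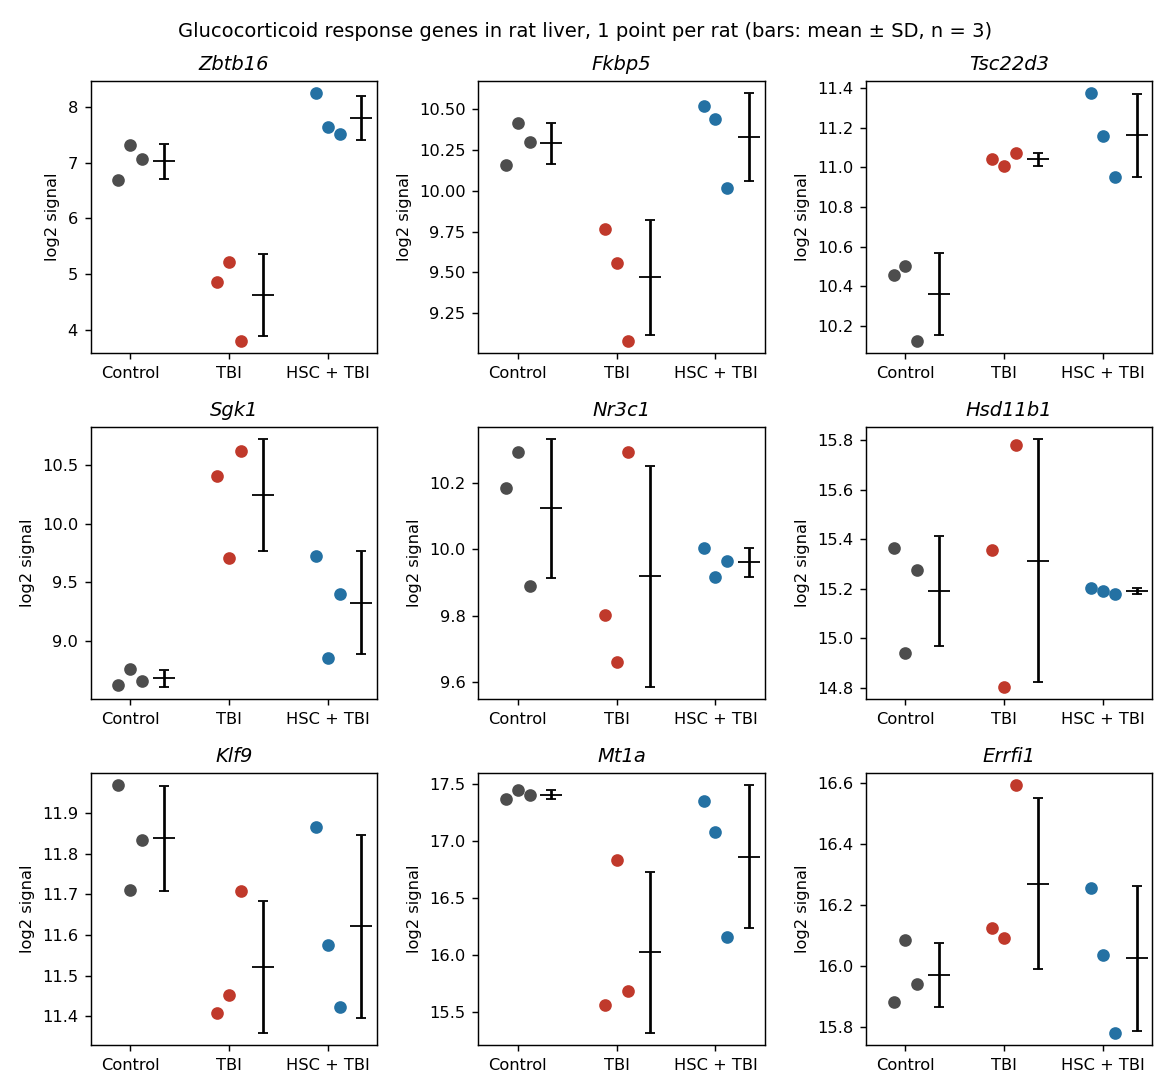
Log2 signal (vertical axis) of the 9 genes in each rat, with 1 point per rat by group on the horizontal axis and the mean ± SD (n = 3) as a bar beside each group. Each vertical axis has its own range. Zbtb16 and Fkbp5 are lowest in the 3 TBI rats, Sgk1 is highest there, and Tsc22d3 is above all Control rats in both irradiated groups.

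The genes whose pattern over the 9 rats was nearest to Zbtb16 were Bcl6, Snai2, Cited4, Rhobtb1 and Usp2. Likeness was the root mean square difference between log2 signals centered on each probe's own mean, over 10974 probes (8533 genes) above background on every array. The distances were 0.75 for Bcl6, a transcriptional repressor, 0.81 for Snai2, a repressor of epithelial adhesion genes, and 0.87 for Cited4, a partner of the coactivators CBP and p300. They were 0.88 for Rhobtb1, an adaptor of a ubiquitin ligase, and 0.91 for Usp2, a deubiquitinating enzyme. The median candidate lay 1.42 away, about the 1.42 by which Zbtb16 itself varied around its own mean, so a distance under 1 is a partial likeness. In each of the 5 genes the 3 TBI rats were below all Control and all HSC + TBI rats, which the choice by likeness favours. They differed from Zbtb16 in the HSC + TBI rats, where Snai2 lay below every Control rat and the other 4 overlapped with Control. Snai2 was near the floor in TBI 3, at 2.57 where the lowest signal marked above background was 2.51.

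Among these 5, Bcl6 had the widest range within the TBI group. It read 12.83, 11.69 and 12.47 in Control, 9.06, 11.57 and 8.59 in TBI, and 12.55, 12.31 and 12.80 in HSC + TBI rats. TBI 2 was thus close to the lowest Control rat, while TBI 1 and TBI 3 lay far below it.

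**Figure D2:**
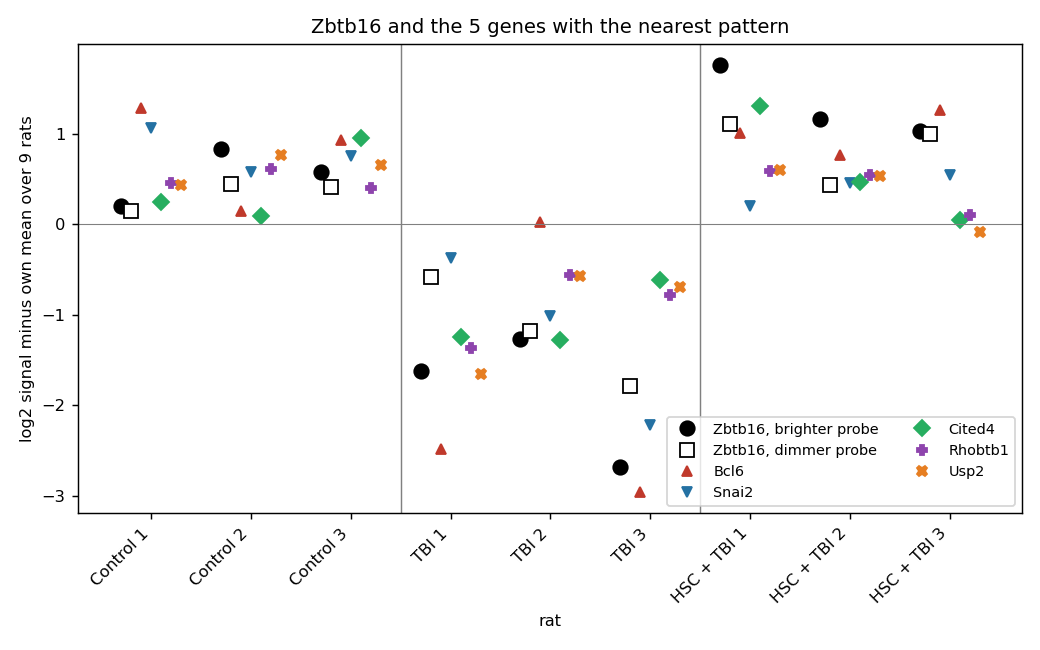
Log2 signal minus each probe's own mean over the 9 rats (vertical axis), by rat (horizontal axis), for both Zbtb16 probes (black circles and white squares) and the 5 genes nearest to the brighter probe (colored symbols). The brighter Zbtb16 probe lies below 0 only in the 3 TBI rats, and Bcl6 in TBI 2 is the one TBI symbol at about 0.

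The receptor and the enzyme that renews its hormone showed no called change. Nr3c1, the glucocorticoid receptor itself, read 10.19, 10.29 and 9.89 in Control, 9.80, 9.66 and 10.29 in TBI, and 10.00, 9.92 and 9.96 in HSC + TBI rats. The groups overlapped, and TBI 3 was level with the highest Control rat. The differences were -0.20 for TBI against Control (95% interval -0.62 to 0.21, adjusted p = 0.515) and -0.16 for HSC + TBI against Control (-0.57 to 0.25, adjusted p = 0.674). HSC + TBI differed from TBI by 0.04 (-0.37 to 0.46, adjusted p = 0.929). The second Nr3c1 probe had all TBI rats below Control and a difference of -0.53 (adjusted p = 0.0691), which was not called.

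Hsd11b1, which regenerates active corticosterone from its inert form inside hepatocytes, read 15.36, 14.94 and 15.27 in Control, 15.36, 14.80 and 15.78 in TBI, and 15.20, 15.19 and 15.18 in HSC + TBI rats. The TBI rats spread to both sides of all others. TBI differed from Control by 0.12 (95% interval -0.41 to 0.65, adjusted p = 0.778), HSC + TBI from Control by -0.003 (-0.53 to 0.53, adjusted p = 0.997) and HSC + TBI from TBI by -0.12 (-0.65 to 0.40, adjusted p = 0.827).

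A further list held 17 genes of the receptor complex and of hormone transport and metabolism, of which 13 had a probe and were tested. After TBI 2 fell and none rose, beside 3.71% of all tested probes called lower, and 11 of the 13 did not overlap between the groups, beside 28.9% of all probes. Both that fell act on the hormone: Hsd11b2 inactivates corticosterone, and Serpina6 encodes the corticosteroid-binding globulin that the liver secretes to carry it in blood. The median difference of the 13 was 0.25, against -0.01 over all tested probes. No probe was found for Fkbp4, Ptges3, Ncoa1 or Ncor1.

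Hsd11b2 read 8.23, 8.58 and 7.90 in Control, 6.86, 6.73 and 6.86 in TBI, and 6.95, 7.05 and 6.74 in HSC + TBI rats. Every irradiated rat was below every Control rat, with or without HSC. It fell by 1.42 after TBI (SE 0.18, adjusted p = 0.00362) and by 1.32 after HSC + TBI (SE 0.18, adjusted p = 0.00652), and both calls held whichever rat was left out. It was the only one of the 13 called after HSC + TBI against Control, where 2.05% of all probes were called lower. For 6 of the 13 these groups did not overlap, beside 31.7% of all probes. HSC + TBI and TBI differed by 0.09 (95% interval -0.31 to 0.50, adjusted p = 0.827).

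Serpina6 read 12.84, 13.28 and 12.91 in Control, 11.36, 12.09 and 12.08 in TBI, and 12.26, 11.66 and 12.12 in HSC + TBI rats. Again no irradiated rat reached the Control range. It fell by 1.17 after TBI (SE 0.24, adjusted p = 0.0239). Omitting Control 2 or Control 3 ended the call, and the difference ranged from -1.29 to -0.93 over the rats left out. After HSC + TBI the difference was -0.99 (adjusted p = 0.0673), which was not called. It was called without TBI 1 (adjusted p = 0.0320), and it stayed uncalled under 9 of 13 other settings and was called under 4.

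Among the other genes of this list none was called, and the largest differences in any comparison were those of Hsp90aa1, Hspa8 and Akr1d1. Hsp90aa1, the inducible Hsp90, differed by 0.74 after TBI (adjusted p = 0.0907) and by 0.90 after HSC + TBI (adjusted p = 0.0812), with no overlap with Control in either. The TBI difference was called without HSC + TBI 2 or HSC + TBI 3, whose omission changes only the spread, and the HSC + TBI difference was called without HSC + TBI 3, at 1.15. Hspa8, the constitutive Hsp70, differed by 0.41 (adjusted p = 0.166) and 0.60 (adjusted p = 0.0927), and Akr1d1, a reductase that clears steroid hormones, by 0.49 (adjusted p = 0.161) and 0.55 (adjusted p = 0.167). None of the 13 was called between HSC + TBI and TBI rats, where 0.796% of all probes were called and 1 of the 13 reached an unadjusted p under 0.05.

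Of the 8 genes other than Zbtb16, limma called 3 after TBI, with Tsc22d3 and Sgk1 higher and Fkbp5 lower, beside 7.25% of all tested probes. For 6 of the 8 the TBI and Control rats did not overlap, beside 28.9% of all probes, although in Klf9 and Errfi1 the gap was very narrow. Their median difference was -0.04, since the changes ran in both directions. The 8 genes were chosen with earlier results of these data known. The count depended on single rats, and it was 1 without Control 1, without Control 2 or without Control 3. Omitting any 1 TBI or HSC + TBI rat also ended or added a call, and the count ranged over 1 to 4.

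Fkbp5, a co-chaperone that lowers the receptor's affinity for hormone and is itself induced by the receptor, read 10.16, 10.41 and 10.30 in Control, 9.77, 9.56 and 9.08 in TBI, and 10.52, 10.44 and 10.02 in HSC + TBI rats. As for Zbtb16, the TBI rats were below all others. It fell by 0.82 after TBI (SE 0.20, adjusted p = 0.0448). Omitting any 1 Control rat, TBI 2, TBI 3, HSC + TBI 1 or HSC + TBI 2 ended the call, and the difference ranged from -0.97 to -0.63. Its other probes differed by -0.52 (adjusted p = 0.148) and -0.53 (adjusted p = 0.184), uncalled, with no overlap between TBI and Control rats on either.

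HSC + TBI rats overlapped with Control in Fkbp5, with a difference of 0.04 (95% interval -0.43 to 0.50, adjusted p = 0.944). Against TBI they differed by 0.86 (SE 0.20, adjusted p = 0.104), a 1.81-fold higher signal that was not called. Without TBI 1 the difference was 1.01 and called (adjusted p = 0.0444), and it lay between 0.66 and 1.01 over all rats left out. On each of the 3 Fkbp5 probes all HSC + TBI rats were above all TBI rats.

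Tsc22d3, also called GILZ, carries much of the anti-inflammatory action of glucocorticoids. It read 10.46, 10.50 and 10.12 in Control, 11.05, 11.01 and 11.07 in TBI, and 11.37, 11.16 and 10.95 in HSC + TBI rats. Both irradiated groups were above every Control rat and overlapped with each other. It rose by 0.68 after TBI (SE 0.15, adjusted p = 0.0286) and by 0.80 after HSC + TBI (SE 0.15, adjusted p = 0.0271), and HSC + TBI differed from TBI by 0.12 (95% interval -0.22 to 0.46, adjusted p = 0.725).

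The second Tsc22d3 probe gave the same picture with a larger step. It read 6.03, 6.05 and 5.97 in Control, 7.15, 7.11 and 7.07 in TBI, and 7.30, 6.81 and 6.74 in HSC + TBI rats. It rose by 1.09 (adjusted p = 0.00556) and by 0.93 (adjusted p = 0.0166). For the brighter probe, omitting any 1 Control rat, TBI 1 or TBI 2 ended the TBI call (range 0.56 to 0.75). Omitting Control 2, Control 3, HSC + TBI 1 or HSC + TBI 2 ended its HSC + TBI call (range 0.68 to 0.91). Tsc22d3 was the only one of the 8 called after HSC + TBI against Control, beside 3.23% of all probes called and 1.19% called higher, and for 3 of the 8 these groups did not overlap, beside 31.7%.

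Sgk1, a kinase that glucocorticoids and mineralocorticoids induce and that regulates ion channels and cell survival, read 8.62, 8.76 and 8.66 in Control, 10.41, 9.71 and 10.62 in TBI, and 9.73, 8.85 and 9.40 in HSC + TBI rats. The TBI rats were far above Control, and the HSC + TBI rats lay between, with HSC + TBI 2 barely above the Control range and HSC + TBI 1 just above TBI 2. It rose by 1.56 after TBI (SE 0.27, adjusted p = 0.0130), a 2.96-fold change that was called whichever rat was left out, with values from 1.38 to 1.83. After HSC + TBI the difference from Control was 0.65 (95% interval 0.02 to 1.27, adjusted p = 0.239). HSC + TBI differed from TBI by -0.92 (-1.54 to -0.29, adjusted p = 0.165), and neither was called.

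Klf9, a zinc finger repressor that glucocorticoids and thyroid hormone induce, read 11.97, 11.71 and 11.83 in Control, 11.41, 11.45 and 11.71 in TBI, and 11.87, 11.57 and 11.42 in HSC + TBI rats. TBI 3 lay just under the lowest Control rat, and the HSC + TBI rats overlapped with both groups. The differences were -0.32 (95% interval -0.66 to 0.03, adjusted p = 0.233), -0.22 (-0.56 to 0.13, adjusted p = 0.480) and 0.10 (-0.25 to 0.45, adjusted p = 0.784) for TBI and for HSC + TBI against Control and for the irradiated groups against each other. None was called.

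Errfi1, a feedback inhibitor of the EGF receptor that glucocorticoids induce, read 15.88, 16.09 and 15.94 in Control, 16.12, 16.09 and 16.59 in TBI, and 16.26, 16.04 and 15.78 in HSC + TBI rats. TBI 3 stood above the rest, and the other values lay close together. TBI 2, at 16.092, was only just above the highest Control rat, at 16.085. The differences were 0.30 (95% interval -0.10 to 0.70, adjusted p = 0.325), 0.05 (-0.35 to 0.46, adjusted p = 0.900) and -0.25 (-0.65 to 0.16, adjusted p = 0.533) in the same order, and none was called.

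**Figure D3:**
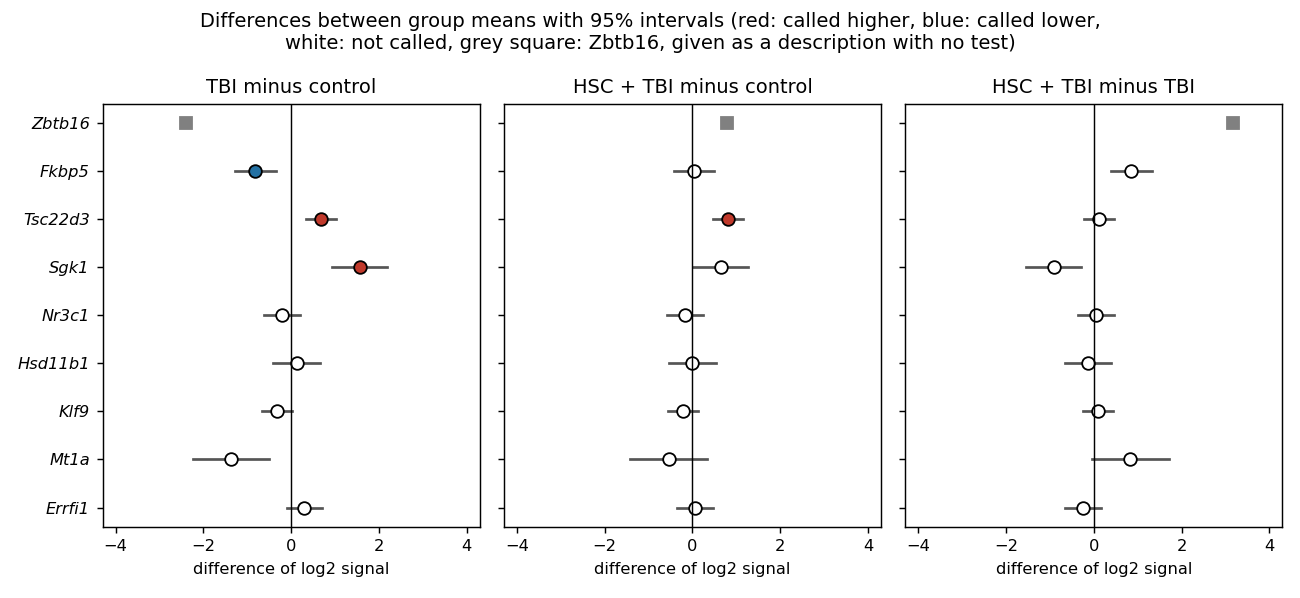
Differences of log2 signal between group means (horizontal axis) for the 9 genes (vertical axis) in the 3 comparisons, with 95% intervals from the fit. Red points were called higher, blue lower and white not called, and the grey squares are Zbtb16, shown without a test. Fkbp5 lies at -0.82 in TBI and at 0.04 in HSC + TBI against Control, while Tsc22d3 lies at 0.68 and 0.80.

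Mt1a, a metallothionein that binds zinc and copper and is induced by metals and glucocorticoids, had the widest spread of the 8 within the irradiated groups. The windows around the annotated starts of Mt1a and of its neighbor Mt2A are shown, with capitals for the letters of metal response elements. The pair varied alike from rat to rat, and any part of these elements in that was not tested. Each window runs from 250 bases before the start to 50 after it, 5′ to 3′ on the minus strand, from RefSeq on build GRCr8, at chr19:10832926-10833225 for Mt1a and chr19:10838659-10838958 for Mt2A.
Mt1a: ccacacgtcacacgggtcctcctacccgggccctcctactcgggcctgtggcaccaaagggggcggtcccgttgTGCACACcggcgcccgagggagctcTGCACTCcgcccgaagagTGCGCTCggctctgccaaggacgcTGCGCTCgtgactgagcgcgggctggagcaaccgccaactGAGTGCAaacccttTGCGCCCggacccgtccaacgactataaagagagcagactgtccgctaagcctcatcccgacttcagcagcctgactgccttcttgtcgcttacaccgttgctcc
Mt2A: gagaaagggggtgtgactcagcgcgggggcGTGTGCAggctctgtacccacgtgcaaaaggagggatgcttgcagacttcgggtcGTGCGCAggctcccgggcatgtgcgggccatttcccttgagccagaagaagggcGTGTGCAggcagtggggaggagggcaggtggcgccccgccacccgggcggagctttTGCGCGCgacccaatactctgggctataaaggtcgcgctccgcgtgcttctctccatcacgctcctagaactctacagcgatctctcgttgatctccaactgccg
The letters searched on both strands were TGCGCNC and TGCACNC, the core of the element that the zinc-sensing factor MTF-1 binds. The Mt1a window holds 6 matches, which begin at -176, -151, -133, -109, -69 and -55 from the start, and the Mt2A window holds 4, at -220, -165, -111 and -55. Of 33469 windows of this length, 24.2% hold at least 1 match and 0.439% hold 4 or more. The TATAAA core begins at -32 and -31 in the pair, beside 14.2% of all windows.

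**Figure D4:**
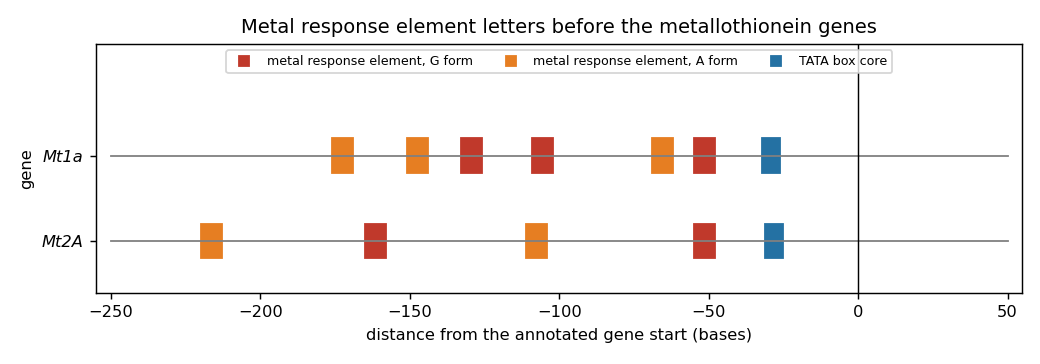
Positions of metal response element letters (red and orange) and the TATA box core (blue) along the windows of Mt1a and Mt2A, as distance in bases from the annotated start (vertical line). Mt1a has 6 element matches and Mt2A has 4, all before the TATA box core.

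Mt1a read 17.36, 17.45 and 17.40 in Control, 15.56, 16.83 and 15.68 in TBI, and 17.35, 17.08 and 16.15 in HSC + TBI rats. The Control rats lay close together, TBI 1 and TBI 3 lay well below them, and HSC + TBI 3 lay nearer to these than to the other HSC + TBI rats. TBI differed from Control by -1.38 (SE 0.38, adjusted p = 0.0639), which was not called. It was called without TBI 2, at -1.78 (adjusted p = 0.0247), and without HSC + TBI 3, at -1.38 (adjusted p = 0.0457). HSC + TBI differed from Control by -0.54 (95% interval -1.41 to 0.33, adjusted p = 0.485) and from TBI by 0.83 (-0.04 to 1.71, adjusted p = 0.329).

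Mt2A, the other main liver metallothionein, read 15.54, 15.70 and 15.77 in Control, 13.27, 14.69 and 13.30 in TBI, and 15.58, 15.18 and 14.00 in HSC + TBI rats. The same rats were low as for Mt1a. It fell by 1.92 after TBI (SE 0.47, adjusted p = 0.0425). The call ended with any 1 Control rat, TBI 1, TBI 3 or HSC + TBI 2 omitted, over a range of -2.39 to -1.68. HSC + TBI differed from Control by -0.75 (adjusted p = 0.423) and from TBI by 1.16 (adjusted p = 0.268). Metallothionein transcripts are nearly alike, so these probes may share signal and are not independent measurements.

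Between HSC + TBI and TBI rats none of the 8 genes was called by limma, beside 0.796% of all probes, and 2, Fkbp5 and Sgk1, had an unadjusted p under 0.05. Without adjustment, the methods' t-test called 1. For 1 of the 8, Fkbp5, the 2 groups did not overlap, beside 21.4% of all tested probes. The comparisons of TBI and of HSC + TBI with Control share the 3 Control rats, so their values are not independent of each other.

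Other listed genes that glucocorticoids induce in liver rose more often than they fell after TBI. The list was chosen with earlier results of these data known, so its counts are a description. Of 28 listed, 27 had a probe and 26 were tested, and after TBI 6 rose (3.54% of all tested probes did) and 1, Mt2A, fell. For 11 of the 26 the groups did not overlap, beside 28.9% of all probes, and the median difference was 0.53, against -0.01 over all tested probes. The count of 7 depended on single rats. It dropped to 2 with Control 1 omitted, to 1 with Control 3, to 4 with TBI 2, to 3 with TBI 3 and to 4 with HSC + TBI 2 omitted. No probe was found for Rgs2, and Arrdc2 was too dim to be tested.

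Those that rose serve glucose and amino acid metabolism and the acute phase. Not every listed gene of glucose and amino acid metabolism rose. Pck1 and Tdo2 differed from Control by -0.19 (adjusted p = 0.554) and -0.24 (adjusted p = 0.582) after TBI by limma, uncalled. Igfbp1, which binds insulin-like growth factors and rises in fasting, read 10.65, 12.46 and 10.88 in Control, 13.39, 14.07 and 14.33 in TBI, and 13.79, 12.78 and 13.91 in HSC + TBI rats. Every irradiated rat was above every Control rat. It rose by 2.60 after TBI (SE 0.51, adjusted p = 0.0191), a 6.05-fold change. Omitting Control 1, Control 3 or TBI 2 ended the call (range 2.25 to 3.16). Its difference after HSC + TBI was 2.16 (adjusted p = 0.0600), which was called without Control 2, at 2.73.

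Tat, tyrosine aminotransferase and a classical receptor target, read 9.13, 10.06 and 8.83 in Control, 10.53, 10.84 and 11.24 in TBI, and 11.12, 10.71 and 10.41 in HSC + TBI rats. Here too the irradiated rats were all above Control. It rose by 1.53 after TBI (SE 0.34, adjusted p = 0.0287) and differed by 1.41 after HSC + TBI (adjusted p = 0.0620). The TBI call ended with Control 1, Control 3, TBI 2 or TBI 3 omitted, over a range of 1.27 to 1.89. The HSC + TBI difference was called without Control 2, at 1.77.

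G6pc1, the glucose-6-phosphatase that releases glucose from the liver, read 15.24, 15.13 and 14.92 in Control, 15.87, 15.80 and 16.21 in TBI, and 15.62, 15.57 and 15.54 in HSC + TBI rats. The 3 groups did not overlap, with HSC + TBI between the others. It rose by 0.86 after TBI (SE 0.14, adjusted p = 0.0105), whichever rat was left out. HSC + TBI differed from Control by 0.48 (adjusted p = 0.112) and from TBI by -0.38 (adjusted p = 0.241).

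Pdk4, a kinase that spares glucose by shutting pyruvate dehydrogenase, read 6.28, 8.44 and 7.76 in Control, 9.04, 9.85 and 9.70 in TBI, and 8.18, 8.01 and 8.64 in HSC + TBI rats. Control rats spread widely, and the HSC + TBI rats overlapped with them. It rose by 2.04 after TBI (SE 0.49, adjusted p = 0.0414). Omitting Control 3, TBI 2, TBI 3 or any 1 HSC + TBI rat ended the call (range 1.43 to 2.51). HSC + TBI lay below every TBI rat, with a difference of -1.25 (adjusted p = 0.260).

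Orm1, the acute phase protein orosomucoid, rose by 1.59 after TBI (SE 0.31, adjusted p = 0.0191) from 14.99 ± 0.46 to 16.58 ± 0.34, and HSC + TBI stood at 16.11 ± 0.49 (SD, n = 3). That call ended with Control 1, Control 3 or TBI 2 omitted (range 1.33 to 1.76). Cebpb, a liver transcription factor of the same response, rose by 0.76 (SE 0.18, adjusted p = 0.0356) from 8.72 ± 0.25 to 9.47 ± 0.26, and HSC + TBI stood at 9.03 ± 0.12. Omitting any 1 rat other than TBI 2 ended this call (range 0.61 to 0.86). In both genes all TBI rats were above all Control rats.

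The largest differences among the uncalled genes ran in both directions. Bcl6, described above for its pattern, differed by -2.59 after TBI (adjusted p = 0.0548) and by 2.82 between HSC + TBI and TBI (adjusted p = 0.110), and both were called without TBI 2, at -3.51 and 3.73. Irs2, an insulin receptor adaptor, differed by 1.41 (adjusted p = 0.116) and was called without TBI 1, at 2.04, as was its difference between HSC + TBI and TBI, at -1.61. With all rats that second difference was -0.98 (adjusted p = 0.370 by limma), and it ranged over -0.99 to -0.28 under 13 other settings. Dusp1, a phosphatase that limits MAP kinases, differed by 1.30 (adjusted p = 0.247) with a range of 6.49 to 9.39 in the Control rats alone. Got1, an aminotransferase, differed by 1.14 (adjusted p = 0.133) and was called at 1.61 without TBI 1, and Sds, serine dehydratase, differed by -0.80 (adjusted p = 0.104).

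After HSC + TBI none of the 26 was called against Control, beside 3.23% of all probes, with 8 at an unadjusted p under 0.05 and 4 by the methods' t-test. The median difference was 0.29, against 0.05 over all probes, and 9 of the 26 did not overlap, beside 31.7% of all probes. Cdkn1c, a cell cycle inhibitor, differed by 1.18 (adjusted p = 0.0607), with 9.61, 9.21 and 9.39 in HSC + TBI against 8.59, 7.96 and 8.12 in Control rats, and was called without TBI 1 or TBI 3. Between HSC + TBI and TBI none of the 26 was called either, beside 0.796% of all probes, with 7 at an unadjusted p under 0.05 and 3 by the methods' t-test. The limma count was 3 without TBI 1 and 1 without TBI 2. The median difference was -0.19, against 0.06 over all probes, and 6 did not overlap, beside 21.4% of all probes. Neither count of 0 shows that the genes were alike in the groups.

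**Figure D5:**
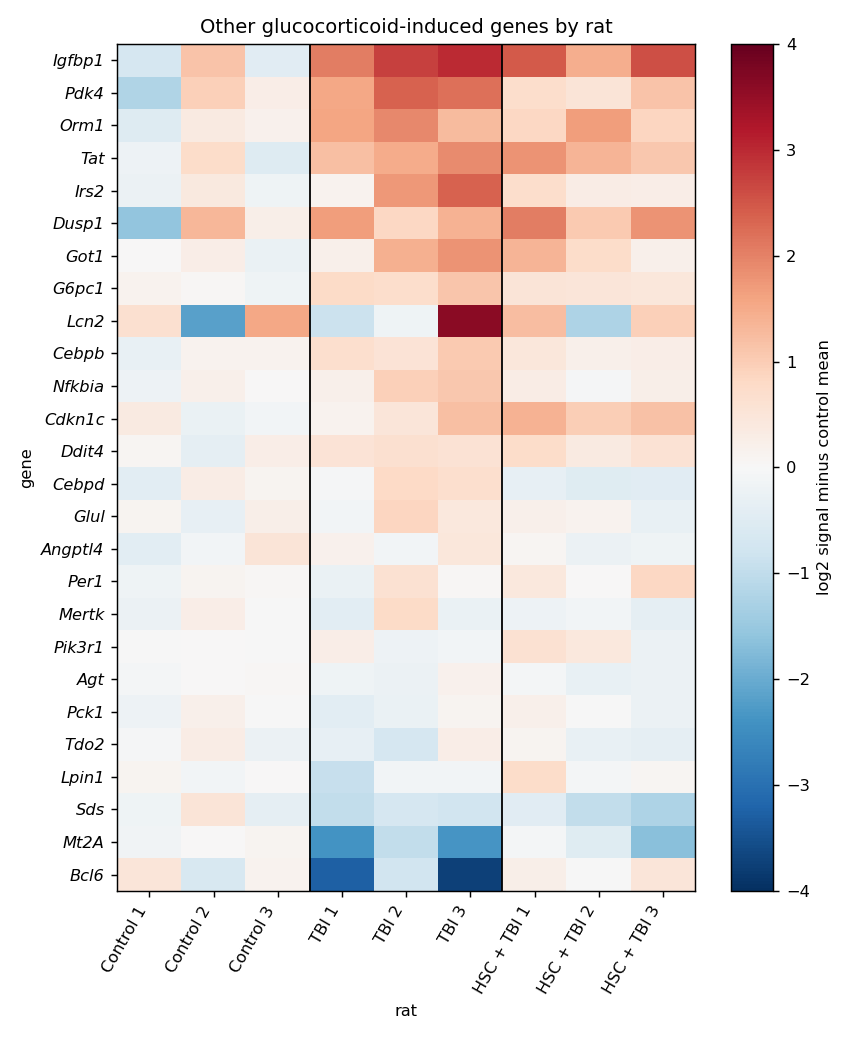
Log2 signal minus the Control mean (color) of the 26 tested glucocorticoid-induced genes (vertical axis, ordered by their difference after TBI) in each rat (horizontal axis). Igfbp1, Pdk4, Orm1 and Tat are red in all 3 TBI rats, and Bcl6 and Mt2A are blue there, most deeply in TBI 1 and TBI 3.

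The windows around gene starts were also searched for the receptor's own element. The full palindrome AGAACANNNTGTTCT occurred in 0.0149% of all windows and in none of the 12 windows of 7 of the 9 genes. The half-site AGAACA occurred on either strand in 20.7% of all windows, in none of those 12, and in 1 of the 24 windows of 23 of the other induced genes, which was Lpin1. A missing match says only that these letters are not in this window.

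The signals of markers of other liver cells are given by group, and their part in the results above was not tested. A summed signal follows its brightest markers. The log2 summed signal of the 10 T and NK cell markers with a probe lay between 10.65 and 11.57 in Control, 9.85 and 11.10 in TBI, and 9.54 and 9.85 in HSC + TBI rats. Lat, above background in every rat, was called lower than Control in both irradiated groups. Of the 8 tested, 7 lay below Control in each irradiated group. Lck lay above it, by 0.55 after TBI and 0.41 after HSC + TBI, uncalled. Nkg7, Gzmb and Prf1 were not called after TBI, at -0.365, -0.638 and -0.34. After HSC + TBI they lay further below Control, at -1.719, -1.977 and -1.654, also uncalled. Between HSC + TBI and TBI, limma called 1 of the 8, Cd2, higher at 2.47 (adjusted p = 0.0306), beside 0.233% of all probes. Of the 8, however, 6 lay below TBI in the HSC + TBI rats and 2 above, with a median difference of -0.49. Cd3g and Cd2 passed the filter through the Control arrays, with Cd2 above background on 0 of 3 TBI and 1 of 3 HSC + TBI arrays, and Cd3e and Cd5 were dim on all arrays. The 8 macrophage and Kupffer cell markers were above background in every rat, and none was called. Their sum ranged over 16.44 to 17.08, 16.51 to 17.40 and 15.99 to 16.11 in the same order of groups. After TBI 7 lay above Control and 1 below. In the HSC + TBI rats all 8 lay below Control and below TBI, with median differences of -0.60 and -0.96. For 7 of the 8 the HSC + TBI and TBI rats did not overlap, beside 21.4% of all probes. Endothelial markers ranged over 13.62 to 13.92, 14.02 to 14.32 and 13.91 to 14.06, a sum that followed mainly Kdr, the brightest. Of the 5 tested, 3 lay above Control after TBI and 2, Cdh5 and Tek, below. After HSC + TBI 2 lay above Control and 3 below. Stellate and matrix cell markers ranged over 13.78 to 14.15, 13.33 to 14.26 and 13.47 to 13.66, with Lum dim on all arrays. Neither of these 2 lists had a called gene.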

How the data were processed

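Per the file headers, the authors read spot intensity with Agilent Feature Extraction 10.7.3.1, and the deposited arrays hold a background-subtracted processed signal with flags. The authors' quantile-normalized log2 values were an alternative here. Here, control spots and outlier spots (84 to 115 of 43379 per array, none saturated) were left out. Processed signals were floored at 1, put on the log2 scale, quantile-normalized over the 9 arrays and averaged per probe with limma 3.58.1 in R 4.3.3. A probe was tested if every array of some group marked it well above background, in 1 fit of the 3 group means (lmFit, eBayes). RefSeq genes of GRCr8 named 16968 probes by accession, and Mt1a was matched as a synonym of Mt1. Groups and replicate numbers came from the sample labels. Each array was taken as a separate rat, since the paper refers to 3 rats in a group. The p-values measure the spread between these rats.

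The genes and lists were chosen with earlier results of these data known, and the lists hold textbook genes. Text names cover the 9 genes, called list genes, the uncalled list genes with the largest differences (at most 6 a list) and the 5 genes nearest to Zbtb16. Pck1, Tdo2 and some marker genes are named beside them. Alternatives comprised normexp (offset 50), a 75th percentile shift, the authors' deposited log2 values, no filter or a filter on all arrays, keeping outlier spots, fitting the compared groups alone, no minimum fold, the methods' t-test (unadjusted and adjusted), replicate and slide blocks, the mean over a gene's probes and each rat left out. The fit was tested on simulated data. No list was tested as a set. The result of 1 further marker list is not reported here.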

Additional observations from a re-analysis of the deposited data

How the results depend on the processing

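Across single genes, a change of setting kept direction and call in 1071 values, ended a call in 33, added one in 59 (25 with the slide as a block) and turned the sign in 7. The causes were not tested. Groups of 3 rats limit every count. In the order members other than Zbtb16, other glucocorticoid-induced genes, receptor and hormone supply, and paralogues, the counts called were 3, 7, 2 and 1 after TBI, 1, 0, 1 and 0 after HSC + TBI, and 0 each between HSC + TBI and TBI. With a rat left out in turn they ranged over 1 to 4, 1 to 8, 1 to 3 and 0 to 2 after TBI, and over 0 to 1, 0 to 2, 1 to 2 and 0 to 0 after HSC + TBI. Between HSC + TBI and TBI they ranged over 0 to 1, 0 to 3, 0 to 0 and 0 to 2.

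The 75th percentile shift gave 4 induced and 3 supply genes after HSC + TBI. It made Hsd11b1 differ by 0.199 after HSC + TBI and by 0.058 from TBI, and Errfi1 by 0.005 from TBI. It also moved the share of higher probes among all calls between HSC + TBI and TBI from 29.2% to 13.7%. Normexp gave Zbtb16 -0.921 and 1.356, 1 induced and 3 supply genes after HSC + TBI, and turned Fkbp5 (-0.012) and Klf6 (-0.01) there. With no filter on dim probes, 3 induced genes and 0 paralogues were called after TBI, and with only probes bright on all arrays, 1 induced gene after HSC + TBI. With only the compared groups fitted, 1 member, 4 induced genes and 0 paralogues were called after TBI, and 1 induced and 2 supply genes after HSC + TBI. The methods' t-test with unadjusted p called 2 paralogues after TBI, 4 induced and 4 supply genes after HSC + TBI, and 1 member and 3 induced genes between HSC + TBI and TBI. With adjusted p it called 0 of each after TBI and 0 members and 0 supply genes after HSC + TBI. The mean over a gene's probes gave 1 induced and 2 supply genes after HSC + TBI, Hsd11b1 0.064 there and Tsc22d3 -0.021 from TBI.

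Same-numbered rats of 2 groups had deviations correlated between -0.144 and 0.191. The 3 Control and TBI pairs gave 0.191, 0.117 and 0.098, and pairs with HSC + TBI rats ran from -0.144 to 0.015. Control and TBI rats of different number gave -0.121 to 0.017, all below the 3 pairs of the same number. The labels name no shared origin and not every pair exceeded 0.1, so the numbers were not taken to pair the rats. Whether Control and TBI rats were paired could not be checked from the labels. With a replicate block, 1 supply gene and 0 paralogues were called after TBI and 1 induced gene after HSC + TBI, and no other count moved by over 1.5 times. The slide as a random block gave 15 induced genes and 2 paralogues after TBI, 2 members, 6 induced, 3 supply genes and 1 paralogue after HSC + TBI, and 2 members, 5 induced genes and 1 paralogue between HSC + TBI and TBI. Its consensus correlation was -0.33, and a negative value narrows the errors by construction.

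Some uncalled differences changed sign with 1 rat left out. After TBI, Hsd11b1 ranged over -0.113 to 0.376. After HSC + TBI, Fkbp5 ranged over -0.061 to 0.19, Hsd11b1 over -0.129 to 0.083, Errfi1 over -0.061 to 0.177, Bcl6 over -0.095 to 0.473 and Klf6 over -0.123 to 0.182. Between HSC + TBI and TBI, Nr3c1 ranged over -0.087 to 0.23, Hsd11b1 over -0.378 to 0.111, Klf9 over -0.023 to 0.198, Tat over -0.308 to 0.066, Serpina6 over -0.065 to 0.35, Sds over -0.314 to 0.077, Hsp90aa1 over -0.128 to 0.403 and Sgk2 over -0.587 to 0.028.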

Other observations

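A list of paralogues held genes of the same protein families as the 9 genes. Of 17 listed, 14 were tested, and after TBI 1 fell and none rose, a share near the 7.25% of all tested probes called. For 5 of the 14 the TBI and Control rats did not overlap, beside 28.9% of all probes. The one that fell was Klf13, a zinc finger factor of the family of Klf9. It read 11.32, 11.89 and 11.66 in Control, 10.69, 10.97 and 10.75 in TBI, and 11.51, 11.20 and 11.00 in HSC + TBI rats. It fell by 0.82 after TBI (SE 0.19, adjusted p = 0.0340 by limma), a call lost without Control 2, Control 3, HSC + TBI 2 or any 1 of the TBI rats. All HSC + TBI rats were above all TBI rats, by 0.43 on average (adjusted p = 0.299).

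Sgk2, a kinase related to Sgk1, differed by 1.05 after TBI (adjusted p = 0.0941) and by 0.81 after HSC + TBI (adjusted p = 0.230), with no overlap with Control in either, and was called after TBI without TBI 3, at 1.40. Tsc22d4 differed by 0.24 after TBI (adjusted p = 0.532) and by -0.68 between HSC + TBI and TBI (adjusted p = 0.185), and was called there without TBI 1, at -0.92. Klf6 differed by 0.55 after TBI (adjusted p = 0.398), with 11.36, 12.98 and 12.66 in the TBI rats, and was called without TBI 1, at 1.04, as was its difference of HSC + TBI from TBI, at -1.03. None of the 14 was called after HSC + TBI against Control or against TBI by limma, beside 3.23% and 0.796% of all probes, with 2 in each at an unadjusted p under 0.05. No probe was found for Zbtb32, Tsc22d2 or Sgk3.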
